A study of Homo sapiens with 6 samples.

Results

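The respiratory chain genes examined here are the nuclear genes that encode subunits of complexes I to V in SW480, an established line of human colorectal cancer cells. Members were taken by symbol: protein-coding genes on nuclear chromosomes in GENCODE release 29 whose names begin NDUFA, NDUFB, NDUFC, NDUFS or NDUFV, the SDH genes A to D, the UQCR genes, the COX4 to COX8 subunits and the ATP5 subunits, without assembly factors. Of 91 matching symbols, 4 were left out, namely the inhibitor ATP5IF1, the coupling factor gene ATP5S and the readthrough genes ATP5MF-PTCD1 and NDUFC2-KCTD14. This left 87 members among 19746 genes: 37 of complex I, 4 of complex II, 9 of complex III, 19 of complex IV and 18 of complex V. NDUFA4 and its relative NDUFA4L2 carry complex I names and were counted with complex IV, where NDUFA4 protein is found.

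The chain lies in the inner mitochondrial membrane. Complex I takes electrons from NADH and complex II takes them from succinate, both pass them through ubiquinone to complex III, cytochrome c carries them to complex IV, and complex IV gives them to oxygen. Complexes I, III and IV pump protons, and complex V, the ATP synthase, uses their return to make ATP. Most subunits are encoded in the nucleus and imported, while a few core subunits come from mitochondrial DNA, so that both genomes contribute to complexes I, III, IV and V.

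RNA-Seq was performed on 6 libraries of SW480 cells in 3 groups of 2: the nontargeting hairpin shNT, and the hairpins shPcyt2-1 and shPcyt2-2 against PCYT2, the rate-limiting enzyme of phosphatidylethanolamine synthesis from ethanolamine. Per the methods of the study, hairpins against PCYT2 were delivered to CRC cells by lentivirus from pLKO.1 and infected cells were selected with puromycin. How the control cells of this experiment were made and selected is not given in the sources used here. Levels are given as FPKM, that is fragments counted on a gene divided by its length and by library size, so that levels of different genes can be set side by side per length. The unit was read from the values themselves, and the number of reads is unknown. A relative measure of depth, taken from the spacing of the lowest values, ran from 6.23 to 6.89 in the shNT libraries, from 5.26 to 6.70 in those of shPcyt2-1 and from 5.89 to 6.87 in those of shPcyt2-2, so the groups overlapped. Nothing in the labels says that the 2 libraries of a group came from separate cultures, so p-values measure the spread between these libraries, which may be technical.

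PCYT2, the targeted gene, was at 11.6 and 13.8 FPKM in the shNT libraries, 7.11 and 7.36 FPKM with shPcyt2-1, and 6.71 and 6.18 FPKM with shPcyt2-2, so all 4 knockdown libraries lay below both controls. Of 10 genes of colon epithelium, EPCAM (between 258 and 312 FPKM), KRT8, KRT18, KRT19, VIL1, CDH1 and CDX2 were at 9.88 FPKM or more in every library, CDH17 and LGALS4 were between 0.57 and 1.89 FPKM, and the differentiation keratin KRT20 was at 0.10 FPKM or less. Of the 9 tested, 2 fell with shPcyt2-1 (22.2% against 26.7% of all tested genes), and 1 rose and 3 fell with shPcyt2-2 (44.4% against 12.4%). CDX2, an intestinal transcription factor, was at 15.5 and 16.9 FPKM with shNT, 10.01 and 9.88 FPKM with shPcyt2-1, and 16.0 and 15.1 FPKM with shPcyt2-2, and fell with shPcyt2-1 (log2 fold change -0.65, limma adjusted p = 0.00138), as did LGALS4 (-0.58, limma adjusted p = 0.0162). With shPcyt2-2, CDH17 rose (0.50, limma adjusted p = 0.0212) and KRT8, KRT18 and KRT19 fell (-0.41, -0.45 and -0.44, limma adjusted p = 0.00483, 0.00319 and 0.00546). KRT8 was at 3602 and 3861 FPKM with shNT, 3540 and 3649 FPKM with shPcyt2-1, and 2734 and 2874 FPKM with shPcyt2-2. Of 4 leukocyte genes, PTPRC was not listed in any library and CD3E did not exceed 0.063 FPKM, while LYZ was between 1.24 and 2.11 FPKM and the lysosomal gene CD68, the most abundant, between 16.0 and 22.7 FPKM. The 4 summed to 23.0 and 19.2 FPKM with shNT, 20.9 and 24.5 FPKM with shPcyt2-1, and 18.0 and 21.8 FPKM with shPcyt2-2, and neither of the 2 tested passed against shNT. Of 6 fibroblast genes, COL3A1 was not listed, COL1A2 and DCN did not exceed 0.059 FPKM, PDGFRB did not exceed 0.80 FPKM and COL1A1 was between 1.03 and 1.68 FPKM. LUM, the highest of them in the mean of the 6 libraries, was at 0.79 and 0.86 FPKM with shNT, 2.17 and 2.24 FPKM with shPcyt2-1, and 1.37 and 1.09 FPKM with shPcyt2-2, and rose with shPcyt2-1 (log2 fold change 0.81, limma adjusted p = 0.00192). The 6 summed to 2.25 and 2.44 FPKM with shNT, 3.62 and 4.10 FPKM with shPcyt2-1, and 3.78 and 3.56 FPKM with shPcyt2-2. Of 3 muscle genes, MYH7 and ACTA1 did not exceed 0.039 FPKM and CKM was between 1.16 and 1.61 FPKM, and the 3 endothelial genes PECAM1, CDH5 and VWF did not exceed 0.60 FPKM. The part of these genes in the results was not tested. In bulk RNA, fewer cells of a type and less RNA per cell cannot be told apart.

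Of the 87 members, 83 were listed and 81 had a mean of at least 0.5 FPKM and were tested. The members that were not listed in any library were COX4I2, COX6A2 and COX8C, alternative forms of complex IV subunits known from other tissues, and ATP5MGL, a relative of ATP5MG. COX7A1, the muscle form of its subunit, did not exceed 0.060 FPKM, and COX7B2 was listed in 1 library, at 0.18 FPKM. None of the 13 protein-coding genes of mitochondrial DNA was listed, so the comparison covers the nuclear genes of the chain only. Subunit genes were short, with a median longest-transcript length of 1366 bases against 3462 bases over the 12756 genes tested. Of the 87 members, 46 share their name with at least 1 annotated pseudogene and 35 overlap an exon of a gene on the opposite strand. A gene on the same strand is overlapped by 25, among them NDUFA9, ATP5PO and COX6B2. The use of strand in counting is not given in the sources used here, so reads shared with such copies or neighbors are a limit on single members.

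The subunit genes made up between 2.04% and 2.13% of the summed FPKM of each library. The median level in shNT over tested members was 57.8 FPKM for complex I, 78.1 FPKM for complex II, 48.2 FPKM for complex III, 143 FPKM for complex IV and 93.6 FPKM for complex V. By mean level in shNT, the most abundant member of complex I was the accessory subunit NDUFA13 (251 and 255 FPKM). In complexes II and III these were the iron-sulfur subunit SDHB (104 and 98.1 FPKM) and the core protein UQCRC1 (204 and 209 FPKM). In complex IV it was COX6B1 (350 and 376 FPKM), which lies between the monomers of a dimer, and in complex V the catalytic beta subunit ATP5F1B (479 and 461 FPKM). SDHA (99.0 and 99.8 FPKM) and COX6A1 (366 and 353 FPKM) lay close to SDHB and COX6B1. Levels ranged widely within complex I, where NDUFS1, the largest subunit of its catalytic core, stood at 3.06 FPKM in both shNT libraries and the core subunit NDUFS8 at 161 FPKM in both. NDUFA3 was the lowest tested member, at 0.20 and 1.83 FPKM in shNT, and its values are deposited under 10 identifiers, so they are uncertain. The values of NDUFA6 are likewise deposited under 5 identifiers and those of NDUFS1 and NDUFS3 under 2 each, and were used once.

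With shPcyt2-1, 21 of the 81 tested members changed against shNT (limma, Benjamini-Hochberg adjusted over all 12756 tested genes), 14 higher and 7 lower, and the remaining 60 did not pass. The share of all tested genes that passed was 26.7% (16.5% higher and 10.1% lower), so the count of 21 of 81, or 25.9%, lay near the background. The median log2 fold change was 0.09 over the members and 0.07 over all tested genes. With shPcyt2-2, 16 members changed, 8 higher and 8 lower, or 19.8% against a background of 12.4% (7.69% higher and 4.74% lower), and the median was 0.02 over the members and 0.04 over all tested genes. The median-ratio scaling of the libraries moved these splits to 7 higher and 7 lower with shPcyt2-1 (25% of all tested genes passed) and to 2 higher and 10 lower with shPcyt2-2 (12.6%). A correction for GC content and transcript length gave 2 higher and 11 lower with shPcyt2-2 (13.9%). With shPcyt2-1, 26 members passed without replicate 1 of shNT (24.1% of all tested genes), whereas 11 members passed without replicate 1 of shPcyt2-1 (8.99%) and 13 without its replicate 2 (14.3%). With shPcyt2-2, 4 passed without replicate 2 of shNT (3.16%), 2 without replicate 1 of shPcyt2-2 (0.98%) and 3 without its replicate 2 (4.41%).

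By complex, the median log2 fold change with shPcyt2-1 was 0.11 for complex I, -0.0070 for complex II, 0.09 for complex III, 0.10 for complex IV and 0.10 for complex V. With shPcyt2-2 it was -0.06, 0.10, 0.02, 0.07 and 0.11 in the same order. Under median-ratio scaling the medians with shPcyt2-1 were 0.0351, -0.0797, 0.0201, 0.0297 and 0.0264, and after correction for GC content and length they were 0.0453, -0.0937, 0.0488, 0.00095 and 0.0185. With shPcyt2-2, median-ratio scaling gave -0.109, 0.0481, -0.0309, 0.0208 and 0.0585, and the correction for GC content and length gave -0.0653, 0.00322, 0.000377, 0.0633 and 0.0383 in the same order. Leaving out 1 library also moved these medians. Without replicate 2 of shNT, those with shPcyt2-1 were 0.13, -0.0576, 0.0585, 0.0654 and 0.0609, and those with shPcyt2-2 were -0.0284, -0.00467, -0.0287, 0.042 and 0.0907. Without replicate 1 of shNT, those with shPcyt2-1 were 0.0851, 0.0502, 0.103, 0.155 and 0.108, and those with shPcyt2-2 were -0.036, 0.195, 0.0654, 0.0753 and 0.148. With shPcyt2-2, complex I was at -0.0374, complex II at 0.0649 and complex III at 0.0369 without its replicate 1, and complex III was at 0.00638 and complex IV at 0.0238 without its replicate 2. With shPcyt2-1, complex II was at -0.0286 without its replicate 1 and at 0.017 without its replicate 2. Both hairpins share the shNT libraries, so the 2 sets of values are not independent. In complex I, both libraries of shPcyt2-1 lay above both of shNT for 19 members and below for 8, whereas both libraries of shPcyt2-2 lay above for 6 and below for 16. Over all tested genes these shares were 43.3% above and 25.6% below with shPcyt2-1, and 35.1% above and 22.4% below with shPcyt2-2.

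Of the members, 6 changed in the same direction with both hairpins: NDUFB2, COX5B, ATP5ME and NDUFA4L2 fell, and NDUFS1 and UQCRHL rose. None changed in opposite directions. These 6 were 7.41% of the tested members, and 4.37% of all tested genes changed in the same direction with both hairpins (3.09% higher and 1.29% lower), in comparisons that share the shNT libraries. NDUFB2, an accessory subunit in the membrane arm of complex I, was at 157 and 157 FPKM with shNT, 121 and 123 FPKM with shPcyt2-1, and 132 and 130 FPKM with shPcyt2-2. Both knockdown groups lay well below the controls, with almost no spread within a group. The log2 fold change was -0.37 (standard error 0.05, limma adjusted p = 0.00262) and -0.26 (limma adjusted p = 0.0185), respectively. Exons of NDUFB2 overlap those of ADCK2 on the same strand and of BRAF and NDUFB2-AS1 on the other.

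COX5B, a zinc-binding subunit on the matrix side of complex IV, was at 225 and 234 FPKM with shNT, 198 and 185 FPKM with shPcyt2-1, and 192 and 193 FPKM with shPcyt2-2. All 4 knockdown libraries were lower than both controls. The decrease was close in size for the hairpins, with log2 fold changes of -0.26 (shPcyt2-1, limma adjusted p = 0.0125) and -0.25 (shPcyt2-2, limma adjusted p = 0.0271). ATP5ME, subunit e of the ATP synthase membrane part, was at 94.0 and 93.3 FPKM with shNT, 66.4 and 69.9 FPKM with shPcyt2-1, and 70.6 and 80.9 FPKM with shPcyt2-2. It fell with shPcyt2-1 (log2 fold change -0.45, limma adjusted p = 0.00396) and with shPcyt2-2 (log2 fold change -0.31, limma adjusted p = 0.0312), and no knockdown library reached the controls. The 0.15 between these log2 fold changes did not pass the test (95% interval -0.02 to 0.32, limma adjusted p = 0.172). After correction for GC content and length, ATP5ME was at -0.25 with shPcyt2-2 (limma adjusted p = 0.051).

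NDUFS1, which carries iron-sulfur clusters on the electron path of complex I, was at 3.06 and 3.06 FPKM with shNT, 4.77 and 4.76 FPKM with shPcyt2-1, and 4.14 and 4.08 FPKM with shPcyt2-2. The 3 groups stood apart, in the order shNT, shPcyt2-2, shPcyt2-1. With shPcyt2-1 the gene rose by 0.51 on the log2 scale (limma adjusted p = 0.00592), and shPcyt2-2 gave a rise of 0.33 (limma adjusted p = 0.048). The latter call was lost with any 1 of the 6 libraries left out (largest limma adjusted p = 0.161, without replicate 2 of shNT) at a log2 fold change between 0.32 and 0.34. It was also lost under median-ratio scaling (0.29, limma adjusted p = 0.0544) and after correction for GC content and length, where the log2 fold change was 0.18 (limma adjusted p = 0.171). The values of NDUFS1 are shared with another identifier, and its exons overlap those of EEF1B2, a translation elongation factor gene on the opposite strand. UQCRHL, an intronless copy of the hinge subunit gene UQCRH, was at 5.60 and 4.16 FPKM with shNT, 11.7 and 9.77 FPKM with shPcyt2-1, and 8.34 and 7.39 FPKM with shPcyt2-2. UQCRH itself was at 208 and 194, 229 and 223, and 202 and 206 FPKM in the same order and did not pass either test. Reads of these near-identical copies may be split between them, so the value of UQCRHL is uncertain.

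Leaving out a library of a hairpin left 1 library in its group, and the share of all tested genes that passed then fell, as given above. A call lost in this way says little about the gene itself. For the 4 genes that fell, the calls with shPcyt2-1 were kept without each library in turn, except that of COX5B without replicate 2 of shPcyt2-1 (log2 fold change -0.21, limma adjusted p = 0.113). With shPcyt2-2, each of the 4 calls was lost without replicate 1 of that hairpin. The log2 fold change was then -0.27 for NDUFB2, -0.25 for COX5B, -0.21 for ATP5ME and -0.58 for NDUFA4L2. With all libraries these values were -0.26, -0.25, -0.31 and -0.59. The call of UQCRHL with shPcyt2-2 was lost in the same way (log2 fold change 0.52, limma adjusted p = 0.159).

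Promoter windows from RefSeq (GRCh38.p14), 250 bases before to 50 bases after the start of the transcript, are shown for the members that changed with both hairpins and were found in the table, since these were the members whose change was seen with each hairpin. Each reads 5′ to 3′ on the strand of its gene. Capitals mark matches, on either strand, to GCANGCG, the center of the site of nuclear respiratory factor NRF1, and to CCGGAAG, a core of ETS sites such as those of GABP. GATGGCG, a core of YY1 sites that was also searched, had no match in these windows. The windows lie at chr7:140696458-140696757, plus strand, chr2:97645812-97646111, plus strand, chr4:674227-674526, minus strand, chr12:57240713-57241012, minus strand, and chr2:206159395-206159694, minus strand. NDUFA4L2 and NDUFS1 have a second start in the table, and the more upstream window is shown.
NDUFB2: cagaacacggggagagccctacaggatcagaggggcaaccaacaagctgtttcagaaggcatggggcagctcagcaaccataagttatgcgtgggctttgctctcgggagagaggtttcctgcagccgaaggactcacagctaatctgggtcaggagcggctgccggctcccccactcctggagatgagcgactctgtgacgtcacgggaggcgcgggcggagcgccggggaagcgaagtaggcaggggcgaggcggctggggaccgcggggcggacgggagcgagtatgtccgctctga
COX5B: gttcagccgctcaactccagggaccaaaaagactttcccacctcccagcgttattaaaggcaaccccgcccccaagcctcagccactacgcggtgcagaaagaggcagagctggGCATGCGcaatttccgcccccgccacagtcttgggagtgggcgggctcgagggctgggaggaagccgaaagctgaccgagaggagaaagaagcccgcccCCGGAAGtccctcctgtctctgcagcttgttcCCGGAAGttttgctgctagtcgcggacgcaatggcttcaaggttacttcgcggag
ATP5ME: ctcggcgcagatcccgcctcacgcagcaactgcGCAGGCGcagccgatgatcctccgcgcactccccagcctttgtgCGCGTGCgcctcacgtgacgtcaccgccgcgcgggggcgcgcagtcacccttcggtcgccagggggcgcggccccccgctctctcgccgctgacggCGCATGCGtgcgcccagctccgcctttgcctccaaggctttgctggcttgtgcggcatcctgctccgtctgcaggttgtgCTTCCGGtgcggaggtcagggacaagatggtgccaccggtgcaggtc
NDUFA4L2: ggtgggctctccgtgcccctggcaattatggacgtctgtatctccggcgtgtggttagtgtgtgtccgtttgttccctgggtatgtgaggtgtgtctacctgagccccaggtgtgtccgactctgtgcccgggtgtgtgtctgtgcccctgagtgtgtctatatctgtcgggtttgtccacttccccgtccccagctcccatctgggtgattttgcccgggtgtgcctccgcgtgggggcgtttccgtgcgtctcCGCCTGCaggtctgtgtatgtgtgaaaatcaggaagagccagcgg
NDUFS1: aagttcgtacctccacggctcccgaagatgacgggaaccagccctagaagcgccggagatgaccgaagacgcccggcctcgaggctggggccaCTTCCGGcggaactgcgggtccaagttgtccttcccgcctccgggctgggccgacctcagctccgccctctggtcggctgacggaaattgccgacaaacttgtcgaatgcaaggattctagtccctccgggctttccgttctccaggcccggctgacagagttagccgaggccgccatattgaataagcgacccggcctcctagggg

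These letters were found in windows of genes that fell and in that of the gene that rose. ATP5ME held 4 NRF1 matches, 2 of which overlap on opposite strands, and 1 ETS match. COX5B held 1 NRF1 match and 2 ETS matches, NDUFA4L2 held 1 NRF1 match, NDUFS1 held 1 ETS match, and NDUFB2 held none of the 3 motifs. Of the 87 members, 71 were found in the table, with 85 windows. An NRF1 match was present in 43.5% of these windows against 24.9% of 22199 windows of protein-coding genes, an ETS match in 25.9% against 12.8%, and a YY1 match in 12.9% against 5.24%. Among windows of tested members, 20 of 31 from members that changed with at least 1 hairpin and 31 of 51 from those that changed with neither held any of the 3. A match describes letters only.

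In complex I, 7 of 37 members rose and 1 fell with shPcyt2-1, or 21.6% against 26.7% of all tested genes. The number that rose was 4 under median-ratio scaling (25% of all tested genes passed) and smaller without either library of shPcyt2-1. After correction for GC content and length 8 rose and 2 fell (27.5%). With the replicate number as a block in the fit 9 rose and 1 fell (30.4%). Besides NDUFS1, the largest increases were those of NDUFA5, NDUFA9 and NDUFB6. NDUFA9, an accessory subunit near the ubiquinone site, was at 13.1 and 13.4 FPKM with shNT and 18.8 and 17.9 FPKM with shPcyt2-1 (log2 fold change 0.44, standard error 0.08, limma adjusted p = 0.00448), and at 14.7 and 14.3 FPKM with shPcyt2-2, where it did not pass. NDUFA5, of the matrix arm, was at 5.98 and 4.80 FPKM with shNT and 8.12 and 7.26 FPKM with shPcyt2-1 (log2 fold change 0.45, limma adjusted p = 0.029), and the groups did not overlap. NDUFB6, of the membrane arm, was at 19.6 and 18.8 FPKM with shNT, 25.0 and 24.9 FPKM with shPcyt2-1 (log2 fold change 0.36, limma adjusted p = 0.0111), and 20.1 and 18.0 FPKM with shPcyt2-2. The calls of NDUFA5 and NDUFB6 were lost without replicate 1 of shPcyt2-1, where the limma adjusted p of NDUFB6 was 0.0723, and that of NDUFA5 reached 0.159 without replicate 2 of shNT. After correction for GC content and length, the log2 fold change was 0.20 for NDUFA5, which did not pass (limma adjusted p = 0.0812), and 0.20 for NDUFB6, which passed (limma adjusted p = 0.0304). NDUFA9 kept its call in all 15 alternatives. The smaller increases included those of the core subunit NDUFV2 and of NDUFB9.

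With shPcyt2-2, 1 of the 37 members of complex I rose and 4 fell, or 13.5% against 12.4% of all tested genes. The number that fell was smaller without replicate 2 of shNT or either library of shPcyt2-2, and larger without replicate 1 of shNT. After correction for GC content and length, 0 rose and 6 fell (13.9% of all tested genes passed), and under median-ratio scaling 0 rose and 5 fell (12.6%). NDUFS6, a zinc-binding subunit next to the NADH-oxidizing part, was at 95.9 and 100.4 FPKM with shNT, 91.5 and 90.7 FPKM with shPcyt2-1, and 65.1 and 68.3 FPKM with shPcyt2-2. Both shPcyt2-2 libraries lay far below the other 4, with a log2 fold change of -0.55 against shNT (standard error 0.07, limma adjusted p = 0.00245), and this was the 1 named call with shPcyt2-2 that was kept in all 15 alternatives. NDUFB7 and NDUFA8, both with paired cysteines and located on the intermembrane space side, fell together with NDUFB2. NDUFB7 was at 154 and 174 FPKM with shNT, 160 and 162 FPKM with shPcyt2-1, and 122 and 135 FPKM with shPcyt2-2 (log2 fold change -0.35, limma adjusted p = 0.0216; -0.20, limma adjusted p = 0.0437, after correction for GC content and length). NDUFA8 was at 54.5 and 59.7 FPKM with shNT, 56.8 and 58.6 FPKM with shPcyt2-1, and 47.1 and 44.7 FPKM with shPcyt2-2 (log2 fold change -0.31, limma adjusted p = 0.024). Both lost the call without replicate 1 of shPcyt2-2, at a limma adjusted p of 0.153 for NDUFB7 and 0.102 for NDUFA8.

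**Figure D1:**
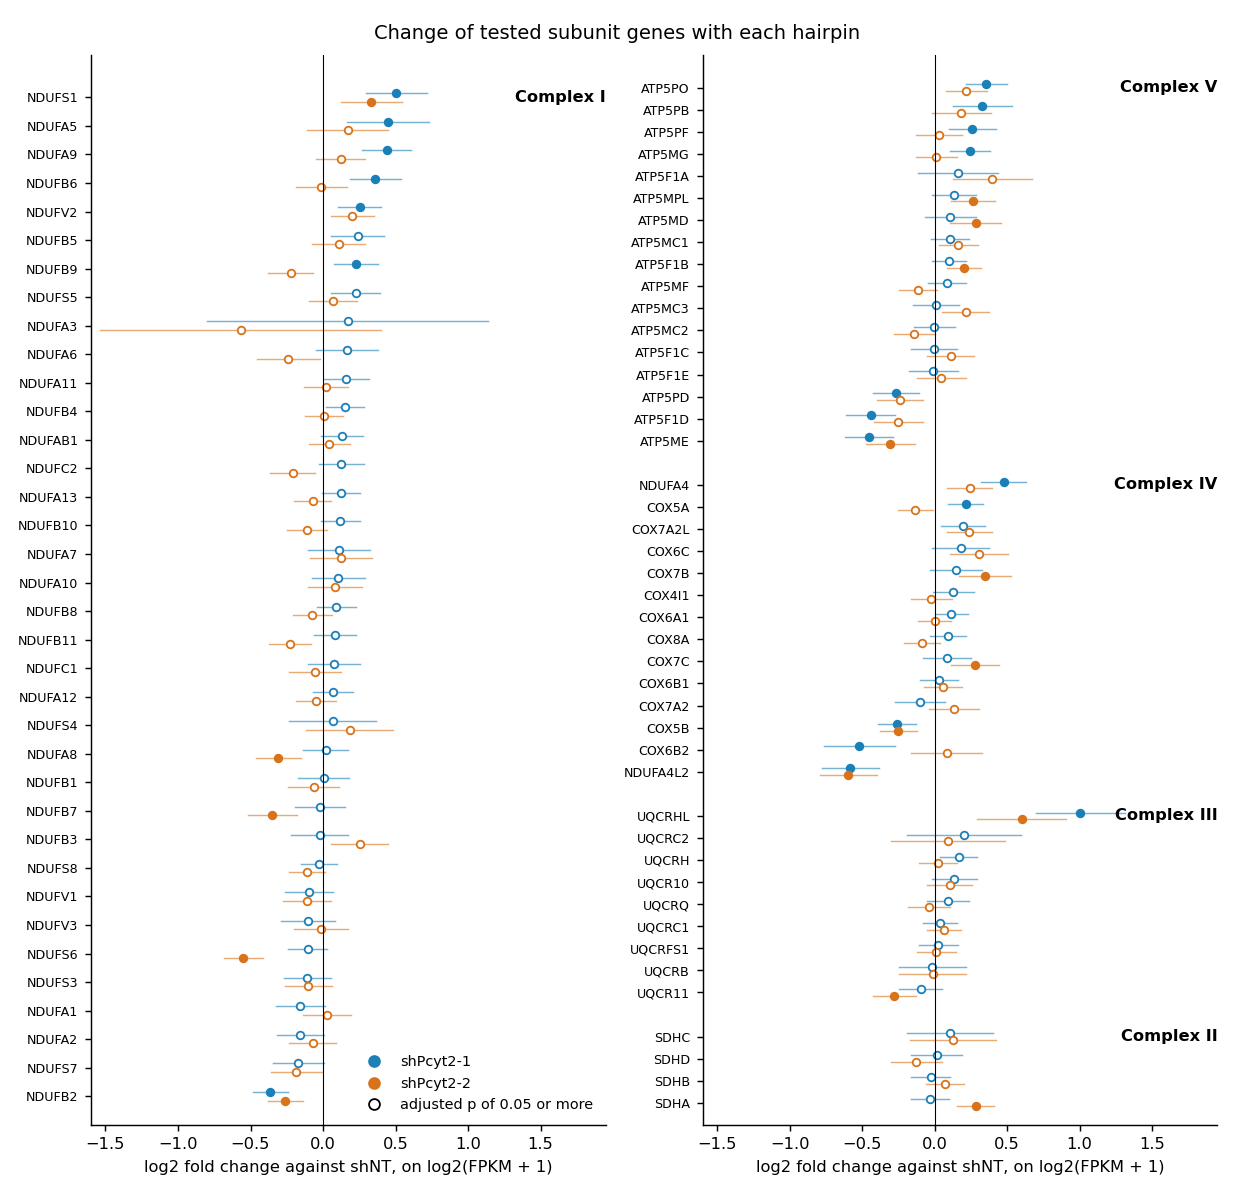
log2 fold change of the tested subunit genes, without 1 of complex I, against shNT with shPcyt2-1 (blue) and shPcyt2-2 (orange), by complex, with 95% confidence intervals from limma. Filled points passed an adjusted p of 0.05. Most points are open, and NDUFB2, COX5B, ATP5ME, NDUFA4L2, NDUFS1 and UQCRHL are filled for both hairpins.

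In complex II, no member passed with shPcyt2-1, where none of the 4 had an unadjusted limma p under 0.05 (40.9% of all tested genes did). With shPcyt2-2, 1 of 4 passed (25% against 12.4%). After correction for GC content and length, 1 of the 4 fell with shPcyt2-1, where 27.5% of all tested genes passed. With shPcyt2-2, 1 rose and 1 fell after this correction (13.9%). The values that follow are without it. SDHA, the flavoprotein that oxidizes succinate and is at the same time an enzyme of the citrate cycle, was at 99.0 and 99.8 FPKM with shNT, 98.9 and 95.6 FPKM with shPcyt2-1, and 124 and 119 FPKM with shPcyt2-2. The shPcyt2-2 libraries stood above the other 4 (log2 fold change 0.28 against shNT, limma adjusted p = 0.0177), and the call was lost without replicate 1 of shPcyt2-2 (0.25, limma adjusted p = 0.121). SDHB, its iron-sulfur partner, was at 104 and 98.1, 97.4 and 101, and 106 and 106 FPKM and did not pass. The membrane anchors SDHC and SDHD did not pass with either hairpin.

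In complex III, 1 of 9 members rose with shPcyt2-1 (11.1% against 26.7% of all tested genes), and 1 rose and 1 fell with shPcyt2-2 (22.2% against 12.4%). Each of these counts changed when replicate 1 of shNT was left out. Those with shPcyt2-2 were both smaller without replicate 2 of shNT or either library of shPcyt2-2. UQCRHL, described above, rose with both hairpins. The core proteins and the Rieske subunit UQCRFS1 did not pass with either hairpin, and UQCRFS1 stayed between 55.2 and 57.8 FPKM in all 6 libraries. UQCRC2 was uneven within the controls, at 43.3 and 26.8 FPKM, while the knockdown libraries lay between these values. UQCR11, a small membrane subunit, was at 49.5 and 47.0 FPKM with shNT, 46.2 and 44.0 FPKM with shPcyt2-1, and 38.9 and 40.2 FPKM with shPcyt2-2, and fell with the latter (log2 fold change -0.28, limma adjusted p = 0.0282; without replicate 1 of shPcyt2-2, -0.26, limma adjusted p = 0.151). Cytochrome c1, encoded by CYC1 and kept outside the symbol rule, was between 174 and 197 FPKM and passed in neither comparison.

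In complex IV, the related genes NDUFA4 and NDUFA4L2 moved apart. NDUFA4 was at 69.3 and 61.9 FPKM with shNT, 93.6 and 89.4 FPKM with shPcyt2-1, and 78.4 and 76.9 FPKM with shPcyt2-2. It rose with shPcyt2-1 (log2 fold change 0.48, standard error 0.07, limma adjusted p = 0.00262; 0.30, limma adjusted p = 0.00534, after correction for GC content and length) and reached 0.24 with shPcyt2-2 (limma adjusted p = 0.0522), which did not pass. NDUFA4L2, known as a hypoxia-inducible gene, was at 17.2 and 17.8 FPKM with shNT, 10.6 and 12.2 FPKM with shPcyt2-1, and 11.2 and 11.4 FPKM with shPcyt2-2. With shPcyt2-1 its log2 fold change was -0.58 (limma adjusted p = 0.00291), shPcyt2-2 gave -0.59 (limma adjusted p = 0.00628), and no knockdown library reached the controls. Exons of NDUFA4L2 overlap those of SHMT2 on the opposite strand.

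Other paired forms of complex IV subunits were held mostly by the common form. COX6A1 was between 353 and 395 FPKM and COX8A between 240 and 285 FPKM in all 6 libraries, and neither passed against shNT, while COX6A2 and COX8C were not listed. COX4I1, whose partner COX4I2 was not listed, was between 215 and 255 FPKM. COX6B2, the testis form, was present at a low level: 7.21 and 6.05 FPKM with shNT, 4.06 and 4.58 FPKM with shPcyt2-1, and 7.36 and 6.77 FPKM with shPcyt2-2. It fell with shPcyt2-1 (log2 fold change -0.52, limma adjusted p = 0.0104; without replicate 1 of shPcyt2-1, -0.45, limma adjusted p = 0.0777), and shPcyt2-2 lay within the range of shNT or slightly above it. COX6B1, the common form, was at 350 and 376, 364 and 378, and 371 and 385 FPKM and did not pass. COX7A2 stood at 152 and 154 FPKM with shNT, and COX7A2L, which takes part in supercomplex assembly, was at 50.6 and 50.8 FPKM with shNT, 58.1 and 58.3 FPKM with shPcyt2-1, and 56.8 and 63.3 FPKM with shPcyt2-2, just short of the threshold in both comparisons (limma adjusted p = 0.0626 and 0.0522).

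Among the other small subunits of complex IV, COX7B and COX7C rose with shPcyt2-2. COX7B was at 37.6 and 32.4 FPKM with shNT, 38.6 and 38.8 FPKM with shPcyt2-1, and 43.8 and 45.4 FPKM with shPcyt2-2 (log2 fold change 0.35, limma adjusted p = 0.0261). COX7C was at 230 and 202 FPKM with shNT, 238 and 220 FPKM with shPcyt2-1, and 257 and 266 FPKM with shPcyt2-2 (log2 fold change 0.28, limma adjusted p = 0.0392). Both calls were lost under median-ratio scaling, after correction for GC content and length, and without replicate 2 of shNT, where the log2 fold change of COX7C was 0.19 (limma adjusted p = 0.151). The correction for GC content and length gave 0.21 for COX7B and 0.12 for COX7C. COX5A, which sits beside COX5B on the matrix side, was at 134 and 134 FPKM with shNT, 158 and 153 FPKM with shPcyt2-1, and 120 and 124 FPKM with shPcyt2-2. It rose with shPcyt2-1 (log2 fold change 0.21, limma adjusted p = 0.0217; without replicate 1 of shPcyt2-1, 0.19, limma adjusted p = 0.19) while COX5B fell. The call of COX5A was also lost under median-ratio scaling (0.14, limma adjusted p = 0.179) and after correction for GC content and length (0.13, limma adjusted p = 0.0831).

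In complex V, 4 of 17 members rose and 3 fell with shPcyt2-1, or 41.2% against 26.7% of all tested genes. Under median-ratio scaling 1 rose and 3 fell (25% of all tested genes passed), and after correction for GC content and length 2 rose and 3 fell (27.5%). With shPcyt2-2, 3 rose and 1 fell (23.5% against 12.4%), and under median-ratio scaling 0 rose and 2 fell (12.6%). All 4 subunits of the peripheral stalk, which holds the catalytic head still, changed with shPcyt2-1, 3 higher and 1 lower. Over all tested genes, 16.5% were higher and 10.1% lower. ATP5PO, the stalk cap that binds the head, was at 187 and 174 FPKM with shNT, 232 and 231 FPKM with shPcyt2-1, and 219 and 202 FPKM with shPcyt2-2. Its log2 fold change with shPcyt2-1 was 0.36 (standard error 0.07, limma adjusted p = 0.00506), a call kept in all 15 alternatives, at 0.23 after correction for GC content and length. ATP5PB, subunit b, was at 37.5 and 32.8 FPKM with shNT and 46.5 and 42.3 FPKM with shPcyt2-1 (0.33, limma adjusted p = 0.0274), and ATP5PF, subunit F6, at 58.7 and 65.6 FPKM with shNT and 73.3 and 75.8 FPKM with shPcyt2-1 (0.26, limma adjusted p = 0.0274). ATP5PD, subunit d, went the other way, from 94.0 and 93.0 FPKM to 82.0 and 73.2 FPKM (-0.27, limma adjusted p = 0.0236). The calls of ATP5PB, ATP5PF and ATP5PD were each lost when a library of shPcyt2-1 was left out (limma adjusted p of 0.168 for ATP5PB without replicate 1, and of 0.133 and 0.187 for ATP5PF and ATP5PD without replicate 2). Under median-ratio scaling ATP5PB (0.26, limma adjusted p = 0.0538) and ATP5PF (0.19, limma adjusted p = 0.142) did not pass, nor did ATP5PB after correction for GC content and length (0.19, limma adjusted p = 0.0557). With shPcyt2-2 none of the 4 passed, and 2 of them had an unadjusted p under 0.05, as did 31.1% of all tested genes.

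In the catalytic head and central stalk, ATP5F1D, the delta subunit, was at 126 and 145 FPKM with shNT, 96.9 and 102 FPKM with shPcyt2-1, and 111 and 115 FPKM with shPcyt2-2. It fell with shPcyt2-1 (log2 fold change -0.44, standard error 0.08, limma adjusted p = 0.00456) in all 15 alternatives, and was at -0.25 with shPcyt2-2 (limma adjusted p = 0.0597). ATP5F1B was at 479 and 461 FPKM with shNT, 500.1 and 507 FPKM with shPcyt2-1, and 531 and 549.7 FPKM with shPcyt2-2, and rose with the latter (0.20, limma adjusted p = 0.0371). In the membrane part, ATP5MG, subunit g, rose with shPcyt2-1 from 92.8 and 86.1 FPKM to 108 and 104 FPKM (0.24, limma adjusted p = 0.021), and ATP5MD and ATP5MPL, small accessory subunits of the membrane part, rose with shPcyt2-2 (0.28, limma adjusted p = 0.0467, and 0.26, limma adjusted p = 0.0364). These 4 calls were all lost under median-ratio scaling and after correction for GC content and length, which left log2 fold changes of 0.03 for ATP5MG (limma adjusted p = 0.724), 0.17 for ATP5MPL, 0.18 for ATP5F1B and 0.23 for ATP5MD. Without 1 library the limma adjusted p reached 0.136 for ATP5F1B (replicate 2 of shPcyt2-2), 0.162 for ATP5MG (replicate 1 of shPcyt2-1), 0.166 for ATP5MD (at 0.17) and 0.139 for ATP5MPL (both replicate 2 of shNT). The 3 genes of the c ring, the proton-driven rotor, encode the same mature protein, and ATP5MC2 was the most abundant of them at 234 and 253 FPKM in shNT, against 99.0 and 101 FPKM for ATP5MC1 and 54.7 and 49.2 FPKM for ATP5MC3. None of them passed with either hairpin.

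Set directly against each other, the hairpins differed for 21 of the 81 tested members, 4 higher and 17 lower with shPcyt2-2 than with shPcyt2-1, or 25.9% against a background of 27.1% of all tested genes (12.9% higher and 14.2% lower). Of the 17, 11 belonged to complex I, all of them accessory subunits, where 1 member was higher. Both libraries of shPcyt2-2 lay below both of shPcyt2-1 for 25 of the 37 members of complex I and above for 5, whereas over all tested genes the shares were 36.5% below and 30.7% above. The median difference was -0.13 for complex I, 0.06 for complex II, -0.11 for complex III, 0.02 for complex IV and 0.06 for complex V, against -0.02 over all tested genes. The value of complex III was -0.0465 without replicate 1 of shPcyt2-2 and -0.0518 without replicate 2 of shPcyt2-1. That of complex II was -0.00322 without the latter library, and that of complex IV was -0.0126 without replicate 2 of shPcyt2-2. That of complex V was 0.0953 without replicate 1 of shPcyt2-2 and 0.0911 without replicate 1 of shPcyt2-1. The value of complex I stayed between -0.14 and -0.10 in every alternative, and the number of its lower members between 5, without either library of shPcyt2-1, and 14. The count over all members was 8 and 9 without replicate 1 and replicate 2 of shPcyt2-1 (13% and 16.1% of all tested genes), 12 and 10 without those of shPcyt2-2 (18.1% and 14.8%), and 31 on leaving out either library of shNT (29.7%). In the catalytic core of complex I none of the 7 members passed by limma, and none had an unadjusted p under 0.05, against 40.2% of all tested genes.

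Up to 2 members per complex and direction are described, so their spread over the complexes follows from this choice. Of the 21 members that differed, 12 were in complex I, 1 in complex II, 5 in complex IV and 3 in complex V. NDUFB9, an accessory subunit of the membrane arm, was at 106 and 114 FPKM with shNT, 136 and 122 FPKM with shPcyt2-1, and 93.7 and 94.4 FPKM with shPcyt2-2, so that the hairpins lay on opposite sides of the control (difference -0.45, limma adjusted p = 0.00195). For NDUFS6 the difference was -0.44 (limma adjusted p = 0.00111) and for COX5A -0.35 (limma adjusted p = 0.00239). NDUFA6 (-0.40, limma adjusted p = 0.0142) and NDUFB6 (-0.37, limma adjusted p = 0.0082), named here after their values were seen, lay between these, and the value of NDUFA6 is uncertain since its 5 identifiers share it. SDHA (0.31, limma adjusted p = 0.00452) and COX6B2 (0.60, limma adjusted p = 0.00457) were higher with shPcyt2-2. The differences of NDUFB9, NDUFS6, COX5A, SDHA and COX6B2 were kept in all 15 alternatives. NDUFB3 (0.27), COX7A2 (0.24), NDUFA4 (-0.23), ATP5PF (-0.23) and ATP5MG (-0.23) also passed, at limma adjusted p-values between 0.0231 and 0.047, and each lost the call without at least 3 of the 6 libraries in turn. NDUFB3 was at 0.16 without replicate 1 of shPcyt2-2 (limma adjusted p = 0.225) and COX7A2 at 0.12 without replicate 2 (limma adjusted p = 0.262).

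When the 4 knockdown libraries were pooled against shNT in a fit with 2 groups, none of the 81 members passed by limma, and 1 of the 12756 tested genes did (0.00784%). PCYT2, the targeted gene, did not pass in this fit either (log2 fold change -0.80, limma adjusted p = 0.115). At an unadjusted p under 0.05 there were 16 members and 16.7% of all tested genes. Taking the mean of the hairpins in the fit with 3 groups, where differences between hairpins do not count as spread, gave 17 members and 16.8% of all tested genes. The knockdown libraries of NDUFB2 and NDUFA4L2 all lay below both controls, with pooled log2 fold changes of -0.31 and -0.59.

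Genes that serve the chain without being subunits were set beside it, against the background of all tested genes (26.7% with shPcyt2-1, 12.4% with shPcyt2-2 and 27.1% between the hairpins). Unlike those of the subunits, calls of single genes in these lists were not followed through other scalings or left-out libraries. Of 16 assembly factors of complex I, 1 passed with shPcyt2-1 (6.25%) and 2 passed with shPcyt2-2 (12.5%): TMEM126B rose with the former (log2 fold change 0.29, limma adjusted p = 0.0482), and ECSIT (-0.41, limma adjusted p = 0.00901) and NDUFAF8 (-0.61, limma adjusted p = 0.0193) fell with the latter. Of 37 assembly factors of complexes II to V, 2 rose and 4 fell with shPcyt2-1 (16.2%), and 4 rose and 4 fell with shPcyt2-2 (21.6%). SDHAF1, which inserts iron-sulfur clusters into SDHB, fell with both hairpins (-0.35 and -0.56, limma adjusted p = 0.0152 and 0.00609). The copper carriers COX17 and SCO2 fell with shPcyt2-1 (-0.51 and -0.66, limma adjusted p = 0.00124 and 0.00931), while COX19 (0.42) and SDHAF2 (0.43) rose with it. With shPcyt2-2, TMEM70, an assembly factor of the ATP synthase, rose (0.48, limma adjusted p = 0.0108), as did SDHAF4 (0.54), and FMC1 fell (-0.47).

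Among the mobile carriers and their partners, 2 rose and 1 fell of 9 genes with shPcyt2-1 (33.3% against 26.7%), and 1 rose and 1 fell with shPcyt2-2 (22.2% against 12.4%). ETFB, which feeds electrons from fatty acid oxidation into ubiquinone, was at 161 and 172 FPKM with shNT, 116 and 115 FPKM with shPcyt2-1, and 139.9 and 143 FPKM with shPcyt2-2, and fell with both (-0.52, limma adjusted p = 0.00103, and -0.23, limma adjusted p = 0.0355). COQ10B, a ubiquinone-binding protein, rose with both, from 8.33 and 7.28 FPKM to 10.5 and 9.43 FPKM and to 12.8 and 12.5 FPKM (0.32, limma adjusted p = 0.0367, and 0.64, limma adjusted p = 0.00641). Cytochrome c, CYCS, was at 48.8 and 41.7 FPKM with shNT and 54.8 and 53.2 FPKM with shPcyt2-1, where it rose (0.25, limma adjusted p = 0.0441). ETFA and CYC1 did not pass in either comparison. The inhibitor ATP5IF1 did not pass in any comparison and was uneven within shNT and shPcyt2-2, at 55.9 and 107 FPKM with shNT, 45.5 and 42.8 FPKM with shPcyt2-1, and 87.0 and 43.4 FPKM with shPcyt2-2. ATP5S, COQ10A and ETFDH were between 1.94 and 4.64 FPKM and did not pass.

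Of the regulators of respiratory genes, 14 of 15 were tested, 3 passed with shPcyt2-1 (21.4% against 26.7%) and 1 with shPcyt2-2 (7.14% against 12.4%), and PPARGC1A, a coactivator of mitochondrial biogenesis, was below the limit at 0.28 FPKM or less. GABPB1, a subunit of the ETS factor GABP, was at 3.15 and 2.92 FPKM with shNT, 4.74 and 5.55 FPKM with shPcyt2-1, and 3.26 and 3.62 FPKM with shPcyt2-2, and rose with shPcyt2-1 (0.60, limma adjusted p = 0.00551). POLRMT, the mitochondrial RNA polymerase, and ESRRA, a nuclear receptor, fell with shPcyt2-1 (-0.34 and -0.24, limma adjusted p = 0.0321 and 0.0395), and TFB1M, which modifies mitochondrial ribosomal RNA, rose with shPcyt2-2 (0.35, limma adjusted p = 0.0313). NRF1, GABPA, TFAM, TFB2M, TWNK, MTERF1, PPARGC1B, PPRC1, YY1 and MYC did not pass against shNT with either hairpin. MYC was the most abundant of the list, between 246 and 280.0 FPKM.

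In the citrate cycle, 2 of 14 genes rose with shPcyt2-1 (14.3% against 26.7%), and 3 rose and 1 fell with shPcyt2-2 (28.6% against 12.4%). CS, citrate synthase, rose with shPcyt2-1 (0.29, limma adjusted p = 0.00853), fell with shPcyt2-2 (-0.28, limma adjusted p = 0.0193) and differed between the hairpins (-0.58, limma adjusted p = 0.000342). FH, fumarate hydratase, rose with shPcyt2-1 (0.48, limma adjusted p = 0.00188), and the succinyl-CoA ligase subunits SUCLG2 and SUCLA2 rose with shPcyt2-2 (0.46 and 0.41, limma adjusted p = 0.0183 and 0.0353). Of 27 genes of import and membrane insertion, 3 rose and 2 fell with shPcyt2-1 (18.5%), and 1 rose and 5 fell with shPcyt2-2 (22.2%). TOMM7, a small subunit of the outer membrane translocase, fell with both (-0.44 and -0.32, limma adjusted p = 0.00171 and 0.0119), and the intermembrane space chaperone TIMM10 fell with shPcyt2-2 (-0.42, limma adjusted p = 0.0134). CHCHD4 and GFER, which together form disulfide bonds in imported proteins, fell with 1 hairpin each, CHCHD4 with shPcyt2-1 (-0.42, limma adjusted p = 0.0128) and GFER with shPcyt2-2 (-0.41, limma adjusted p = 0.0282).

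The subunits of the mitochondrial ribosome, which translates the mitochondrial part of the chain, gave counts of similar size. Of 78 genes, 16 rose and 6 fell with shPcyt2-1 (28.2%, median 0.08), 6 rose and 6 fell with shPcyt2-2 (15.4%, median 0.01), and 7 were higher and 14 lower with shPcyt2-2 than with shPcyt2-1 (26.9%, median -0.10). Of 80 tested genes of the cytosolic ribosome, 5 rose and 13 fell with shPcyt2-1 (22.5%, median -0.05), 4 rose and 3 fell with shPcyt2-2 (8.75%, median 0.04), and 12 were higher and 1 lower with shPcyt2-2 than with shPcyt2-1 (16.2%, median 0.09). Over all tested genes the shares in these comparisons were 26.7%, 12.4% and 27.1%, and the medians were 0.07, 0.04 and -0.02. After correction for GC content and length, the medians of the mitochondrial ribosome were 0.021, -0.0336 and -0.0801 in the same order. Those of the cytosolic ribosome were -0.108, -0.000807 and 0.0958, and those of all tested genes 0.0105, -0.00167 and -0.0143.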

How the data were processed

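Libraries of SW480 cells were sequenced by the authors, who deposited 1 table per library with a value per Ensembl identifier that was read as FPKM from the values themselves (TPM over part of the genes fits them as well). The aligner, the counting and the annotation are not given in the sources used here. The submitters' processing notes list the builds GRCh38, GRCm38 and mm10. Of the 2 library kits in the labels, neither is tied to particular libraries, so no batch could be compared. The methods of the study name a count test, and limma was used here because the values are not counts.

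Values of repeated identifiers were summed, and those that shared all values were joined into 1 gene. The test covered genes with a mean of 0.5 FPKM or more, on log2(FPKM + 1) with limma 3.58.1 in R 4.3.3, with a mean-variance trend, in a fit with 3 groups, and p-values were adjusted over all tested genes. A fold change on this scale understates the change of low genes. The number of libraries limits the precision. Names, positions and lengths came from GENCODE release 29. Members and lists were chosen with earlier results of these data known. Genes described singly are, for each hairpin against shNT, up to 4 members per complex and direction by size of change, provided that the adjusted p was below 0.05 and the hairpin libraries lay on 1 side of both controls (up to 2 for the difference between hairpins, and up to 2 of each other list), the most abundant member of each complex, members below the limit, paralogs, and all carriers and regulators. The values of 1 member are not reported here singly. The fits were tested on simulated data. Figures were drawn with matplotlib 3.10.9.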

Additional observations from a re-analysis of the deposited data

Results flagged for a closer look

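The members whose difference between the hairpins passed the test and was among the largest of their complex were listed, as log2 fold changes of shPcyt2-2 against shPcyt2-1. They were higher with shPcyt2-2 for COX6B2 (0.60), SDHA (0.31), NDUFB3 (0.27) and COX7A2 (0.24), and lower for NDUFB9 (-0.45), NDUFS6 (-0.44), COX5A (-0.35), NDUFA4 (-0.23), ATP5PF (-0.23) and ATP5MG (-0.23).

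Among the 4 knockdown libraries of the 81 tested members, 2 members had a library far from the others, where chance marks about 1 in 20 groups. ATP5F1A, the catalytic alpha subunit of complex V, was at 95.6 FPKM in replicate 2 of shPcyt2-2, against 70.0, 68.2 and 69.8 FPKM in the other knockdown libraries and 63.7 and 59.9 FPKM with shNT. NDUFA3 was at 2.23 FPKM in replicate 2 of shPcyt2-1, against 0.33, 0.23 and 0.26 FPKM in the other knockdown libraries and 0.20 and 1.83 FPKM with shNT.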

How the results depend on the processing

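Named calls were chosen with the libraries of the compared groups apart, so leaving out a library or changing the fit could not turn their direction. Median-ratio scaling and the correction for GC content and length could, and none of the calls turned under them. These calls numbered 18 with shPcyt2-1, 16 with shPcyt2-2 and 10 between the hairpins. In the same order, 9, 1 and 5 of them kept an adjusted p under 0.05 (limma) throughout. With no expression limit the members that passed numbered 12 with shPcyt2-1, 1 with shPcyt2-2 and 13 between the hairpins (median -0.07), where 9.27%, 0.628% and 12.3% of all genes passed, and with no mean-variance trend 12, 4 and 12 (23.1%, 8.05% and 25%). With a limit of 5 FPKM the median between the hairpins was -0.07, and 24 members passed with shPcyt2-2, against 16 (21.2% of all genes against 12.4%). Median-ratio scaling gave medians of 0.0202, -0.0311 and -0.0614, and the correction for GC content and length gave 0.0216, -0.0356 and -0.0516. With 1 library left out at a time, the members that passed ranged from 11 to 26 with shPcyt2-1, from 2 to 23 with shPcyt2-2 and from 8 to 31 between the hairpins (8.99% to 25.5%, 0.98% to 14.8% and 13% to 29.7% of all genes), and the medians from 0.0673 to 0.106, from -0.0212 to 0.0312 and from -0.0873 to -0.0629. In the pooled comparison the mean of the hairpins in the fit with 3 groups gave 17 members (16.8% of all genes) in place of 0, and an adjusted p of 0.00334 (limma) for PCYT2 at the same log2 fold change of -0.80. Complex medians changed sign in at least 1 alternative for complex II in all 3 comparisons (between -0.0937 and 0.0502 with shPcyt2-1, -0.00467 and 0.195 with shPcyt2-2, and -0.00322 and 0.121 between the hairpins), for complex III with shPcyt2-2 (between -0.0309 and 0.0654) and for complex IV between the hairpins (between -0.0126 and 0.0501). The count tests planned were not run, since the values are not counts.

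Whether same-numbered libraries are paired could not be settled. Deviations of same-numbered libraries from their group means correlated at 0.003 between shNT and shPcyt2-1, 0.06 between shNT and shPcyt2-2 and 0.19 between the hairpins. With 2 libraries per group, different-numbered libraries give the same values with the opposite sign, so these have no reference to be judged by. With the replicate number as a block, 23, 23 and 24 members passed with shPcyt2-1, with shPcyt2-2 and between the hairpins, where 30.4%, 15.9% and 30.3% of all genes passed.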
